A study of Bos taurus with 3 samples.

Results

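The growth factor and morphogen signalling genes of the bovine mammary gland were followed from the dry period to early lactation. A gene was taken as a member when its symbol in the deposited gene tables began with IGF, FGF, TGFB, BMP, SMAD, EGF, AREG, ERBB, WNT, FZD, SFRP, DKK, NOTCH, JAG, DLL, VEGF, PDGF, INHB or GDF, or was one of a few whole names such as MET, HGF and LRP6. The rule used names and no measured value, and it found 73 of the 9154 genes with a tag in at least 1 library. By family, 19 members belonged to the TGF-beta, BMP and SMAD group, 17 to the Wnt pathway, 12 to the IGF axis, 7 to the FGF group, 5 to the EGF and ERBB group, 4 to Notch, 4 to PDGF, 3 to VEGF and 2 to HGF and MET. By role, 26 were ligands, 14 receptors, 17 secreted binding proteins or modulators and 5 SMAD transducers. The other 11 met the rule by the letters of their symbol but were given none of these roles. An example is JAGN1, a protein of the endoplasmic reticulum that is no Notch ligand. Some of the 11, such as DKKL1, are relatives of a family. They are named letters-only matches here and described apart.

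Mammary biopsies came from 18 Holstein cows in the second parity, and no genotype or treatment separated the groups. The −35 d group was sampled in the dry period about 35 d before parturition, the −7 d group about 7 d before parturition, and the +3 d group 3 d after it, when colostrum was produced. Tissue of the 6 cows of a group was pooled before RNA isolation, and 1 digital gene expression (DGE) library was sequenced per pool. The −7 d library compared with the −35 d library stands for stage I of lactogenesis, and the +3 d library compared with the −7 d library for stage II.

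Growth factors and morphogens are secreted proteins that carry messages between epithelium, stroma and vessels over short distances, and each binds its own receptors on the cell surface. Binding proteins such as the IGFBPs, and secreted antagonists such as the SFRPs and DKKs, hold the ligand or keep it from its receptor, so the signal that a cell receives depends on each of these layers. In the mammary gland these pathways are known for ductal growth, alveolar budding, survival of the epithelium and remodelling of the stroma and the vessels, and an mRNA level shows only the supply of message for each part.

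A DGE tag is the 21 bases at a CATG site near the 3′ end of a transcript, and the unit TPM is the number of unambiguous tags on a gene scaled to the clean tags of the library (tags per 1000000 clean tags). The libraries held 5593237 to 5914422 clean tags. A floor of 3 tags, about the 95% upper limit of counting error for a count of 0, stands for 0.507 to 0.536 TPM. Tags seen in only 1 copy had been dropped, so a count of 0 may hide such tags. CSN1S1, CSN2, CSN3, CSN1S2 and PAEP, 5 milk protein genes, took 0.348% of the −35 d library, 4.13% of the −7 d library and 22.6% of the +3 d library, which left a smaller share of the tags for all other genes in the later libraries. TMM scaling, which centres the ratios of most genes near 0, raised all log2 ratios by 0.19 in stage I, 0.31 in stage II and 0.50 at +3 d compared with −35 d. A gene was called at an FDR of at most 0.001 in the Audic-Claverie test of tag counts, with Benjamini-Hochberg (BH) adjustment over all genes, and a log2 ratio of at least 1 in size. There was 1 library per time point, so the test compares libraries and not conditions, and the 95% intervals given below cover counting error only. In pooled tissue, fewer cells of a type and less RNA per cell cannot be told apart.

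Of the 73 members, 59 had tags in all 3 libraries, and 40 reached a mean of 5 TPM. Together they held 4471 TPM at −35 d, 4319 TPM at −7 d and 4536 TPM at +3 d. This nearly level sum joined opposite movements, and its course depends on the scaling by clean tags. TMM scaling raises such sums relative to −35 d, by 0.19 at −7 d and 0.50 at +3 d on the log2 scale. IGFBP7 alone made up 38.9% (Wilson 95% interval 38.3 to 39.5) of the members' tags in the −35 d library, 58.6% (58.0 to 59.2) in the −7 d library and 55.4% (54.8 to 56.0) in the +3 d library, while the others together went from 2731 TPM to 1789 TPM and 2021 TPM. The sum of the 14 receptors went from 796 TPM to 555 TPM and 456 TPM, the lowest value at +3 d. TMM scaling raises +3 d relative to −7 d by 0.31 on the log2 scale, so where the receptor sum is lowest depends on the scaling. The sum of the binding proteins and modulators without IGFBP7 went from 1131 TPM to 591 TPM and back to 799 TPM, with its lowest value at −7 d.

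In stage I, 7 of the 71 members tested were downregulated and 0 upregulated, or 9.86% called, where 9.07% of all genes tested were called (2.62% higher and 6.45% lower). The 7 were SFRP1, IGFBP4, MET, FZD1, FGFR1OP2, TGFB1I1 and VEGFB. At an unadjusted p under 0.05, 6 members were higher and 34 lower, where 1389 of all 8967 genes tested were higher and 2800 lower. In stage II, 6 of 71 were upregulated (SFRP1, SFRP4, DKK3, IGFBP1, IGFBP5 and TGFB1I1) and 1, GDF10, was downregulated, again 9.86%, where 13.5% of all genes were called (3.12% higher and 10.4% lower). The unadjusted p counted 23 members higher and 10 lower, beside 1150 and 3200 of 8784 genes. Over the whole span, from −35 d to +3 d, 6 of 73 were upregulated (BMP1, BMP4, FZD8, IGFBPL1, SFRP4 and VEGFC) and 11 downregulated (AREGB, DKKL1, ERBB3, FGFR1OP2, FZD1, GDF10, IGF2R, IGFBP4, MET, SFRP1 and SMAD2), or 23.3%, where 18.6% of all genes were called (2.33% higher and 16.3% lower). The unadjusted p counted 14 higher and 22 lower, beside 872 and 4188 of 8988 genes. The share called in stage I thus lay near that of all genes. Each library enters 2 of the 3 comparisons, so these counts are not independent of each other. TMM scaling gave 0 higher and 4 lower calls in stage I, where 8.12% of all genes were called (4.22% higher and 3.90% lower). It gave 12 higher and 1 lower in stage II (10.8% of all genes, 5.87% higher and 4.90% lower), and 12 higher and 4 lower at +3 d compared with −35 d (11.2%, 6.23% higher and 4.94% lower), so the split of the last comparison depends on the scaling. In an exact test that assumed a coefficient of variation of 0.2 among pools, 1, 2 and 1 members were called, beside 0.602%, 1.82% and 1.74% of all genes. With a coefficient of 0.4, 0 members were called, beside 0.0335%, 0.0911% and 0.156% of all genes.

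**Figure D1:**
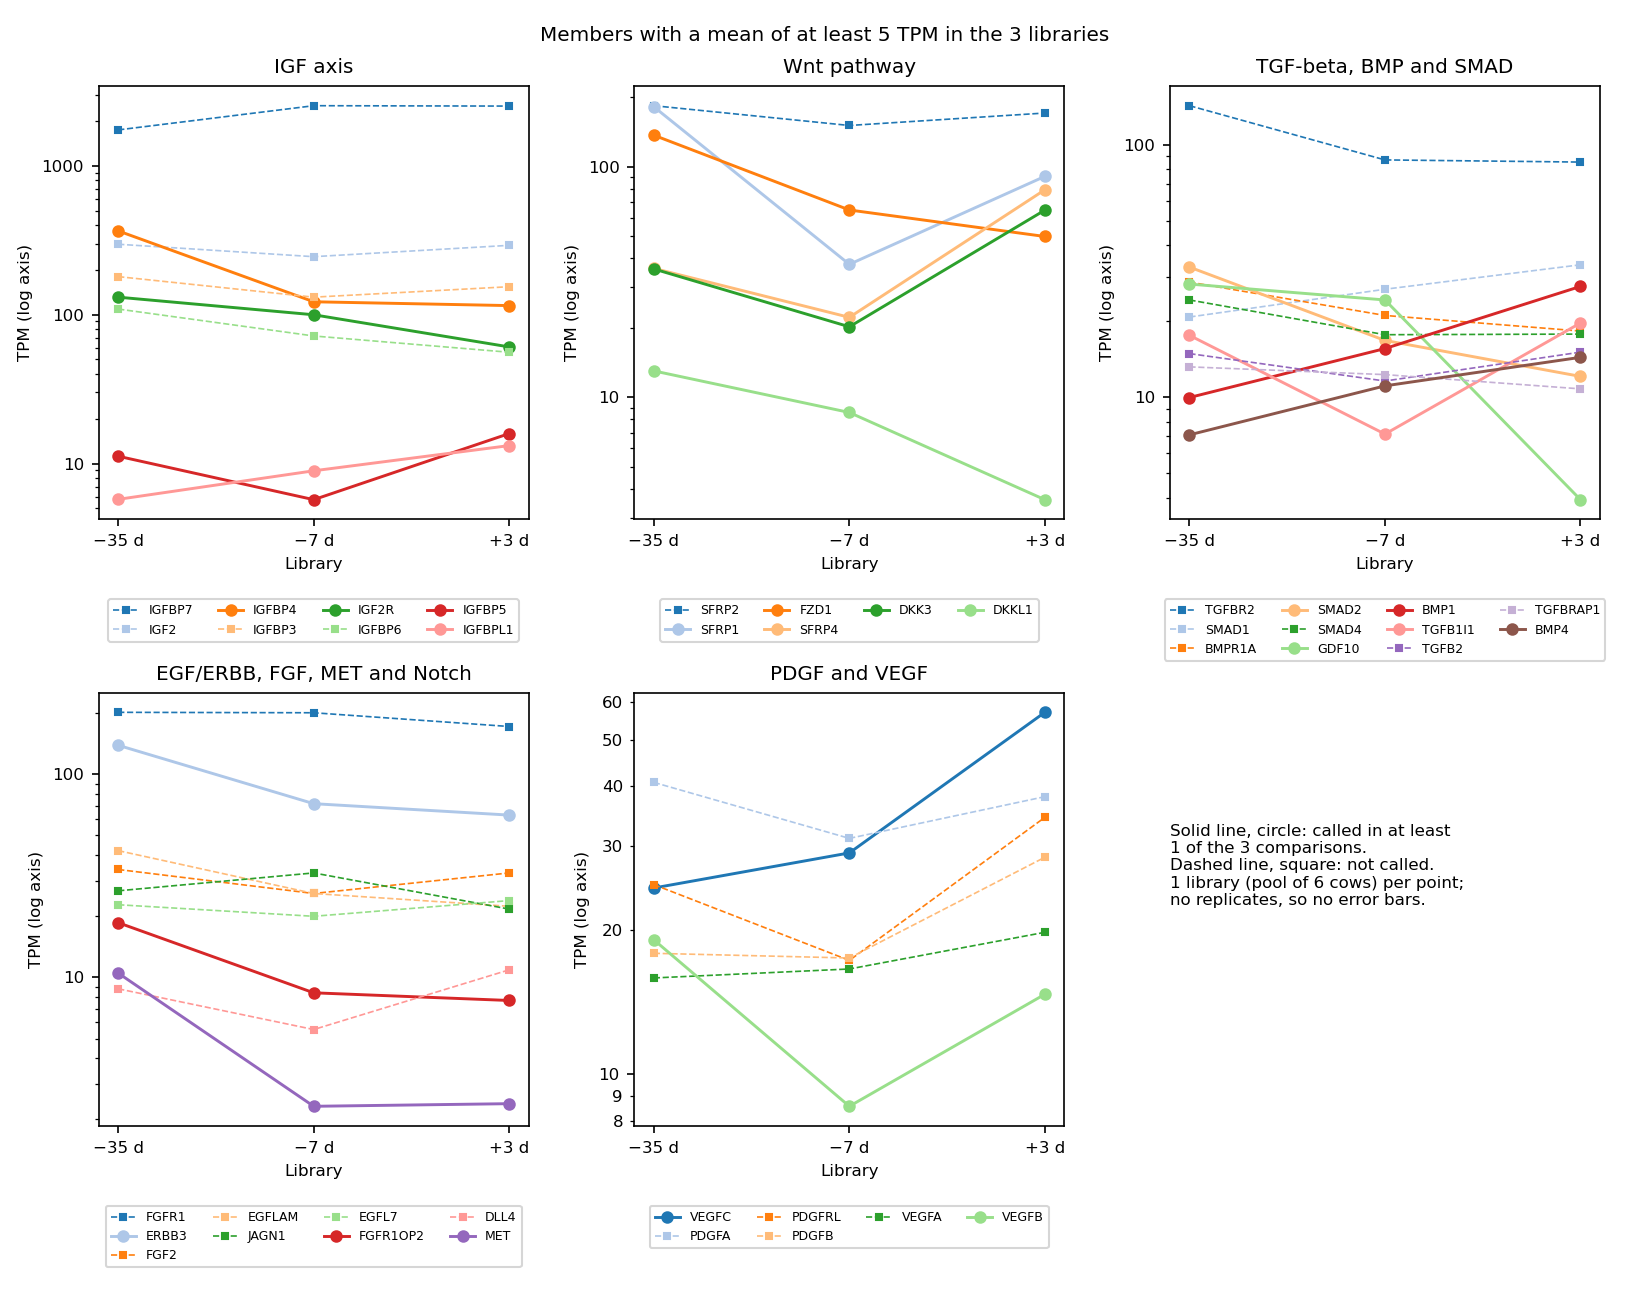
TPM on a log axis at −35 d, −7 d and +3 d for the 40 members that averaged 5 TPM or more, in 5 panels by family, with 1 library of 6 pooled cows per point and no error bars. Solid lines with circles mark members called in at least 1 comparison and dashed lines with squares the others, and IGFBP7 lies at or above 1740 TPM throughout while SFRP1, SFRP4, DKK3 and TGFB1I1 dip at −7 d and GDF10 drops at +3 d.

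The 26 ligands held 539, 444 and 551 TPM in sum. IGF2, an insulin-like growth factor best known from fetal growth, was the ligand with the most tags, with 1758 tags (297 TPM) at −35 d, 1372 tags (245 TPM) at −7 d and 1707 tags (292 TPM) at +3 d. It was not called in any comparison, and its log2 ratio of −0.03 (−0.12 to 0.07) at +3 d compared with −35 d became 0.47 after TMM scaling. IGF1, the ligand best known as a mediator of growth hormone, had 8, 9 and 16 tags, too few for a called difference, with a log2 ratio of 1.02 (−0.29 to 2.45) at +3 d compared with −35 d.

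Among the angiogenic ligands, VEGFC, which acts on lymphatic and blood vessels, had 145 tags (24.5 TPM) at −35 d, 162 tags (29.0 TPM) at −7 d and 333 tags (57.0 TPM) at +3 d. The +3 d library stood apart from the other pair. At +3 d compared with −35 d it was upregulated 2.32-fold (log2 ratio 1.22, 0.93 to 1.51; Audic-Claverie FDR with BH adjustment = 1.17e-17), while the stage II ratio of 0.98 (0.70 to 1.26) fell just under the fold threshold and passed it after TMM scaling at 1.28. VEGFB, a ligand with a weaker angiogenic role, moved the other way in stage I, with 113 tags (19.1 TPM), 48 tags (8.58 TPM) and 86 tags (14.7 TPM). It was downregulated at −7 d (log2 ratio −1.15, −1.67 to −0.66; Audic-Claverie FDR with BH adjustment = 9.72e-06), a call that ended after TMM scaling at −0.96. VEGFA, the main driver of vessel sprouting, had 94, 93 and 116 tags and was not called. Of the tags of these 3 ligands, VEGFC held 41.2% (Wilson 36.2 to 46.4) in the −35 d library, 53.5% (47.8 to 59.0) in the −7 d library and 62.2% (58.1 to 66.2) in the +3 d library, and VEGFB 32.1% (27.4 to 37.2), 15.8% (12.2 to 20.4) and 16.1% (13.2 to 19.4). Such shares do not depend on the library total.

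PDGFA and PDGFB, which draw fibroblasts and pericytes, were not called. PDGFA had 241 tags (40.7 TPM), 174 tags (31.1 TPM) and 222 tags (38.0 TPM), and PDGFB 106 tags (17.9 TPM), 98 tags (17.5 TPM) and 166 tags (28.4 TPM). The PDGFB ratio of 0.70 (0.33 to 1.07) in stage II reached 1.0 after TMM scaling and was then called. FGF2, a growth factor for fibroblasts and endothelium, had 201 tags (34.0 TPM), 145 tags (25.9 TPM) and 191 tags (32.7 TPM) and was not called either.

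GDF10, a BMP-like ligand also named BMP3B, showed the steepest drop among the members with over 3 tags in both libraries. It had 166 tags (28.1 TPM) at −35 d and 136 tags (24.3 TPM) at −7 d but only 23 tags (3.93 TPM) at +3 d. The first pair of libraries lay close together and the last stood far below both. In stage II it fell by 2.63 on the log2 scale (interval −3.33 to −1.98; Audic-Claverie FDR with BH adjustment = 7.5e-21), which is 6.18-fold, and between −35 d and +3 d the fold was 7.13. GDF10 remained called after TMM scaling and in an exact test that assumed a coefficient of variation of 0.2 among pools.

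BMP4, a ligand known for patterning organs in the embryo, went the opposite way with 42 tags (7.10 TPM), 62 tags (11.1 TPM) and 84 tags (14.4 TPM). It was upregulated at +3 d compared with −35 d (log2 ratio 1.02, 0.47 to 1.59; Audic-Claverie FDR with BH adjustment = 0.000413). TGFB2, a ligand of the growth-inhibiting TGF-beta branch, had 88, 65 and 88 tags (14.9, 11.6 and 15.1 TPM), and its ratio of 0.02 (−0.43 to 0.46) over the whole span leaves room for changes of either sign. AREGB, an amphiregulin gene and thus a ligand of the EGF receptor, had 15 tags (2.54 TPM) and 9 tags (1.61 TPM) and was not listed at +3 d. It was called lower at +3 d than at −35 d (Audic-Claverie FDR with BH adjustment = 0.000116), by 4.94-fold if the +3 d count is set to 3 tags. That call ended after TMM scaling.

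Among the other 14 ligands none was called. TGFB3, WNT11 and the Notch ligand DLL4 had the most tags of these, with 35, 17 and 32 tags for TGFB3, 35, 16 and 29 tags for WNT11, and 52, 31 and 64 tags for DLL4. All 3 had their lowest count at −7 d, and DLL4 was called higher in stage II after TMM scaling at 1.29. The activin subunit INHBA had 10, 3 and 13 tags, FGF1 had 21, 8 and 5 tags, and WNT2 had 22, 10 and 5 tags. BMP2, FGF18, GDF9, HGF, JAG2, PDGFD, WNT2B and WNT10A stayed at or below 11 tags in every library. Depth limits what can be said of them.

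Receptors mostly stood lower at +3 d than at −35 d. Of the 8 with over 3 tags in both libraries, 8 had a lower TPM at +3 d, with a median log2 ratio of −1.0, where 5657 of 7518 genes had a lower TPM and the median of all genes was −0.52. After TMM scaling 7 of 8 lay below 0, with a median of −0.50, where 3833 of the genes lay below 0 and their median was −0.02. Of 14 receptors tested in this comparison, 4 were downregulated and 1, FZD8, upregulated, beside 16.3% and 2.33% of all genes, and after TMM scaling 1 was called in each direction, beside 4.94% lower and 6.23% higher. The ligands had a median of −0.04 over 20 members and the binding proteins and modulators one of 0.23 over 14 members, which became 0.46 and 0.73. Differences between roles were not tested.

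**Figure D2:**
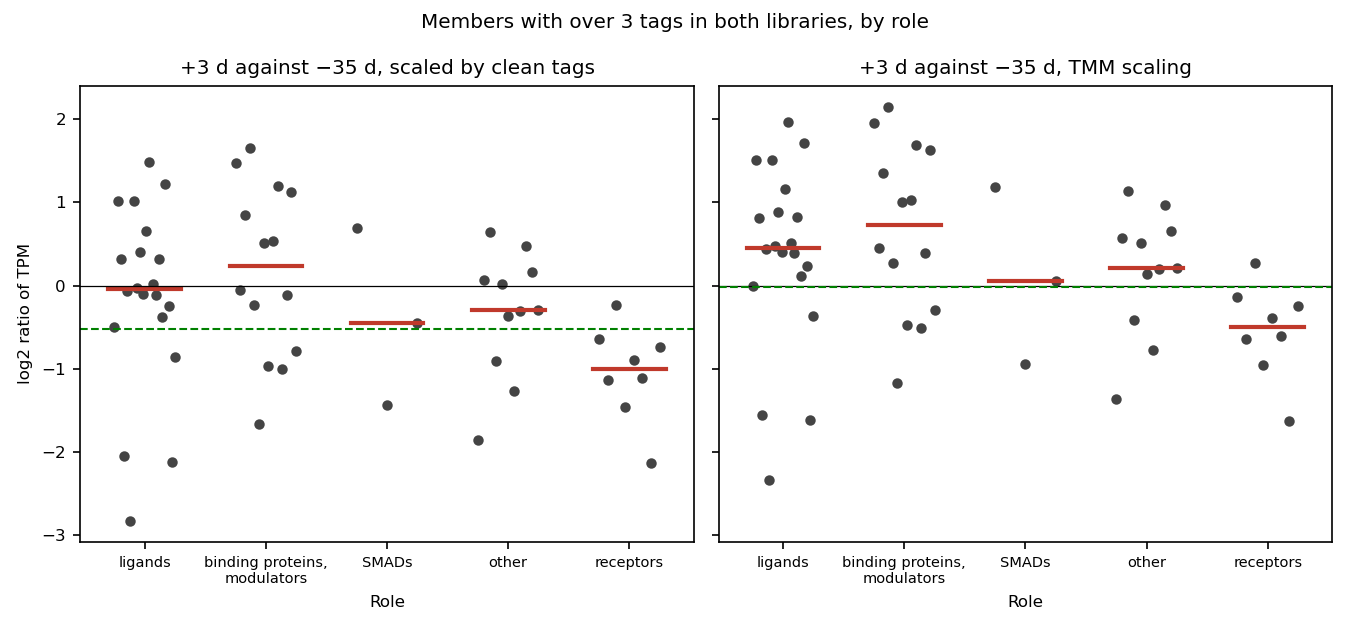
Log2 ratio of TPM at +3 d compared with −35 d for members with over 3 tags in both libraries, by role, with scaling by clean tags on the left and TMM scaling on the right. Each point is a member, red bars are medians and the green dashed line is the median of all genes. The 8 receptors lie below 0 on the left (median −1.0) and 7 of 8 do so on the right, while ligands and modulators spread over both sides.

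ERBB3, a receptor that binds neuregulins and signals through its partner ERBB2, had 821 tags (139 TPM) at −35 d, 401 tags (71.7 TPM) at −7 d and 368 tags (63.0 TPM) at +3 d. The main drop came in stage I. The stage I ratio of −0.95 (−1.13 to −0.78) lay just inside the fold threshold, and ERBB3 was downregulated at +3 d compared with −35 d (log2 ratio −1.14, −1.32 to −0.96; Audic-Claverie FDR with BH adjustment = 8.85e-38), although at −0.64 after TMM scaling it was not called. FZD1, a Wnt receptor, followed the same course with 808 tags (137 TPM), 363 tags (64.9 TPM) and 291 tags (49.8 TPM). It was downregulated in stage I (log2 ratio −1.07, −1.26 to −0.89; Audic-Claverie FDR with BH adjustment = 1.06e-32) and over the whole span (−1.46, −1.65 to −1.26), and both calls ended after TMM scaling, at −0.88 and −0.96. Nearly all Frizzled tags were of FZD1, 96.9% (Wilson 95.5 to 97.9) at −35 d and 93.3% (89.9 to 95.6) at +3 d. FZD8, another Frizzled receptor, was not listed at −35 d and had 7 tags (1.25 TPM) at −7 d and 13 tags (2.22 TPM) at +3 d. It was called higher at +3 d than at −35 d (Audic-Claverie FDR with BH adjustment = 0.000360), by 4.38-fold if the −35 d count is set to 3 tags.

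IGF2R, which takes up IGF2 and sorts lysosomal enzymes, was lower in each later library, with 776 tags (131 TPM), 558 tags (99.8 TPM) and 355 tags (60.7 TPM). Only the whole span passed the threshold (log2 ratio −1.11, −1.30 to −0.93; Audic-Claverie FDR with BH adjustment = 2.63e-34), and it did not pass after TMM scaling at −0.61. MET, the receptor of hepatocyte growth factor, had 62 tags (10.5 TPM) at −35 d but 13 tags (2.32 TPM) and 14 tags (2.39 TPM) later. It was downregulated 4.51-fold in stage I (log2 ratio −2.17, −3.16 to −1.30; Audic-Claverie FDR with BH adjustment = 1.81e-07), and the stage II ratio of 0.04 (−1.15 to 1.25) showed no difference detectable at this depth. The stage I call held after TMM scaling at −1.98. Its ligand HGF had 4, 0 and 2 tags.

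FGFR1, a receptor for FGFs in stroma and epithelium, stayed close to level, with 1194 tags (202 TPM), 1125 tags (201 TPM) and 1005 tags (172 TPM). Its log2 ratio of −0.01 (−0.12 to 0.11) in stage I bounds any difference between these libraries below the fold threshold. TGFBR2, the ligand-binding TGF-beta receptor, had 843 tags (143 TPM), 488 tags (87.2 TPM) and 500 tags (85.5 TPM), and BMPR1A, a BMP receptor, had 169 tags (28.6 TPM), 118 tags (21.1 TPM) and 107 tags (18.3 TPM). Neither was called, with stage I ratios of −0.71 (−0.87 to −0.55) and −0.44 (−0.79 to −0.09). The other 6 receptors, FZD6, FZD7, FZD10, LRP6, NOTCH1 and TGFBR1, had at most 15 tags in a library and were not called.

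The SMADs carry TGF-beta and BMP signals to the nucleus, SMAD1 for the BMP branch, SMAD2 for the TGF-beta and activin branch and SMAD4 as the shared partner. SMAD2 had 194 tags (32.8 TPM), 94 tags (16.8 TPM) and 71 tags (12.1 TPM), and SMAD1 had 123 tags (20.8 TPM), 150 tags (26.8 TPM) and 196 tags (33.5 TPM). The order of these SMADs thus turned between −35 d and +3 d. SMAD2 was downregulated at +3 d compared with −35 d (log2 ratio −1.43, −1.85 to −1.03; Audic-Claverie FDR with BH adjustment = 2.72e-13) but not after TMM scaling at −0.94. SMAD1, at 0.69 (0.36 to 1.03), was not called, and it was called higher after TMM scaling at 1.19. Of their joint tags SMAD1 held 38.8% (Wilson 33.6 to 44.3) in the −35 d library, 61.5% (55.2 to 67.4) in the −7 d library and 73.4% (67.8 to 78.3) in the +3 d library, a shift that does not depend on the library total. SMAD4 had 144, 99 and 104 tags (24.3, 17.7 and 17.8 TPM) and was not called, and the inhibitory SMAD7 and SMAD9 of the BMP branch had at most 4 tags.

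Among the IGF binding proteins, IGFBP7 had the most tags of all members in each library. IGFBP7, a matrix-bound relative with weak IGF affinity that endothelium also makes, had 10289 tags (1740 TPM) at −35 d, 14150 tags (2530 TPM) at −7 d and 14700 tags (2515 TPM) at +3 d. Its log2 ratio of 0.54 (0.50 to 0.58) in stage I exceeded counting error (Audic-Claverie FDR with BH adjustment = 8.01e-184) but not the fold threshold, and the stage II ratio was −0.01 (−0.04 to 0.02). After TMM scaling the whole span reached 1.03 and was called. IGFBP4, an inhibitory IGF binding protein, moved against it, with 2158 tags (365 TPM), 684 tags (122 TPM) and 672 tags (115 TPM). IGFBP4 was downregulated 2.98-fold in stage I (log2 ratio −1.58, −1.70 to −1.45; Audic-Claverie FDR with BH adjustment = 7.63e-157), had a stage II ratio of −0.09 (−0.24 to 0.07), and kept its calls after TMM scaling.

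IGFBP3, the main carrier of circulating IGFs, had 1066 tags (180 TPM), 734 tags (131 TPM) and 901 tags (154 TPM), and IGFBP6, which prefers IGF2, had 646 tags (109 TPM), 402 tags (71.9 TPM) and 327 tags (55.9 TPM). Neither was called, although IGFBP6 came close over the whole span at −0.97 (−1.16 to −0.77). Without IGFBP7, the share of IGFBP4 among IGFBP1 to IGFBP6 went from 54.5% (Wilson 52.9 to 56.0) to 36.9% (34.7 to 39.1) and 33.2% (31.1 to 35.2), and that of IGFBP3 from 26.9% (25.6 to 28.3) to 39.5% (37.3 to 41.8) and 44.4% (42.3 to 46.6). The leading binding protein of this group was IGFBP4 at −35 d and IGFBP3 at +3 d.

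IGFBP5, a matrix-associated binding protein known from involuting mammary gland, had 66 tags (11.2 TPM) at −35 d, 32 tags (5.72 TPM) at −7 d and 93 tags (15.9 TPM) at +3 d. The −7 d library was the low one. It was upregulated in stage II (log2 ratio 1.48, 0.88 to 2.10; Audic-Claverie FDR with BH adjustment = 6.69e-07). IGFBP1, a binding protein made chiefly by liver and responsive to insulin, had 10 tags (1.69 TPM) and 31 tags (5.30 TPM) at −35 d and +3 d and was not listed at −7 d. It was called higher at +3 d than at −7 d (Audic-Claverie FDR with BH adjustment = 6.94e-09), by 9.89-fold if the −7 d count is set to 3 tags. That call also held with an assumed coefficient of variation of 0.2. IGFBPL1, a secreted IGFBP-like protein, had 34, 50 and 77 tags (5.75, 8.94 and 13.2 TPM) and was upregulated over the whole span (log2 ratio 1.20, 0.60 to 1.82; Audic-Claverie FDR with BH adjustment = 0.000105). IGFBP2 had 15, 4 and 3 tags and IGFALS, the acid-labile partner of circulating IGFBP3, had 10, 4 and 3 tags, and neither was called.

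The secreted Frizzled-related proteins bind Wnt ligands outside the cell and differed from each other in course. SFRP1 had 1078 tags (182 TPM) at −35 d, 211 tags (37.7 TPM) at −7 d and 531 tags (90.8 TPM) at +3 d. It was downregulated 4.83-fold in stage I (log2 ratio −2.27, −2.49 to −2.06; Audic-Claverie FDR with BH adjustment = 5.01e-128) and upregulated 2.41-fold in stage II (1.27, 1.03 to 1.50; Audic-Claverie FDR with BH adjustment = 1.89e-28). The +3 d level stayed at −1.0 (−1.16 to −0.85) relative to −35 d, at the threshold, and that call alone ended after TMM scaling at −0.51. The stage I drop was the single member call of that stage that held with an assumed coefficient of variation of 0.2.

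SFRP4 had 214 tags (36.2 TPM), 124 tags (22.2 TPM) and 464 tags (79.4 TPM), so its highest value was at +3 d. It was upregulated 3.58-fold in stage II (log2 ratio 1.84, 1.55 to 2.14; Audic-Claverie FDR with BH adjustment = 1.42e-42) and 2.19-fold over the whole span. SFRP2 varied less, with 1086 tags (184 TPM), 843 tags (151 TPM) and 997 tags (171 TPM), and was not called. SFRP1 and SFRP2 had almost equal tags at −35 d, 45.2% (Wilson 43.2 to 47.2) and 45.5% (43.5 to 47.5) of SFRP tags. At −7 d SFRP2 held 71.3% (68.7 to 73.8) and SFRP1 17.9% (15.8 to 20.1), and at +3 d SFRP2 held 49.9% (47.8 to 52.1), SFRP1 26.6% (24.7 to 28.6) and SFRP4 23.2% (21.4 to 25.1). SFRP5 had at most 7 tags.

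**Figure D3:**
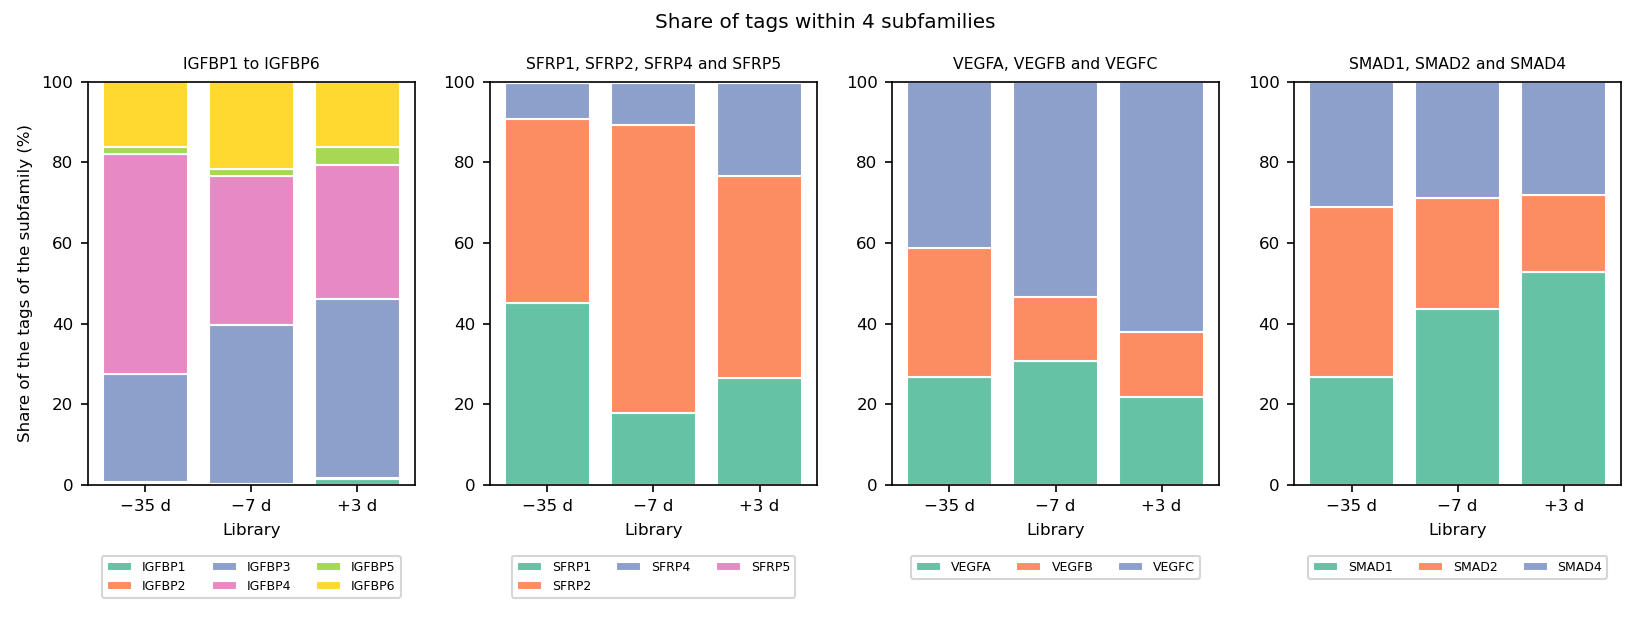
Stacked bars of the share of tags (percent, from 0 to 100) that each gene held within 4 subfamilies in each library. IGFBP4 shrinks from 54.5% to 33.2% of IGFBP1 to IGFBP6 tags, SFRP2 peaks at 71.3% of SFRP tags at −7 d, VEGFC grows from 41.2% to 62.2% and SMAD1 overtakes SMAD2, and none of these shares depends on the library total.

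DKK3, a secreted glycoprotein of the Dickkopf family with uncertain Wnt activity, resembled SFRP4, with 213 tags (36.0 TPM), 113 tags (20.2 TPM) and 379 tags (64.8 TPM). It was upregulated 3.21-fold in stage II (log2 ratio 1.68, 1.38 to 2.0; Audic-Claverie FDR with BH adjustment = 7.18e-31). BMP1, which despite its name is a protease that trims procollagen and the BMP antagonist chordin, had 59 tags (9.98 TPM), 87 tags (15.6 TPM) and 161 tags (27.5 TPM). Its tags were more numerous in each later library, and it was upregulated 2.76-fold over the whole span (log2 ratio 1.47, 1.03 to 1.92; Audic-Claverie FDR with BH adjustment = 1.15e-11). BMPER, which binds BMPs, had 22, 14 and 21 tags and the Wnt antagonist DKK2 had 3, 0 and 6 tags, and neither was called.

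**Figure D4:**
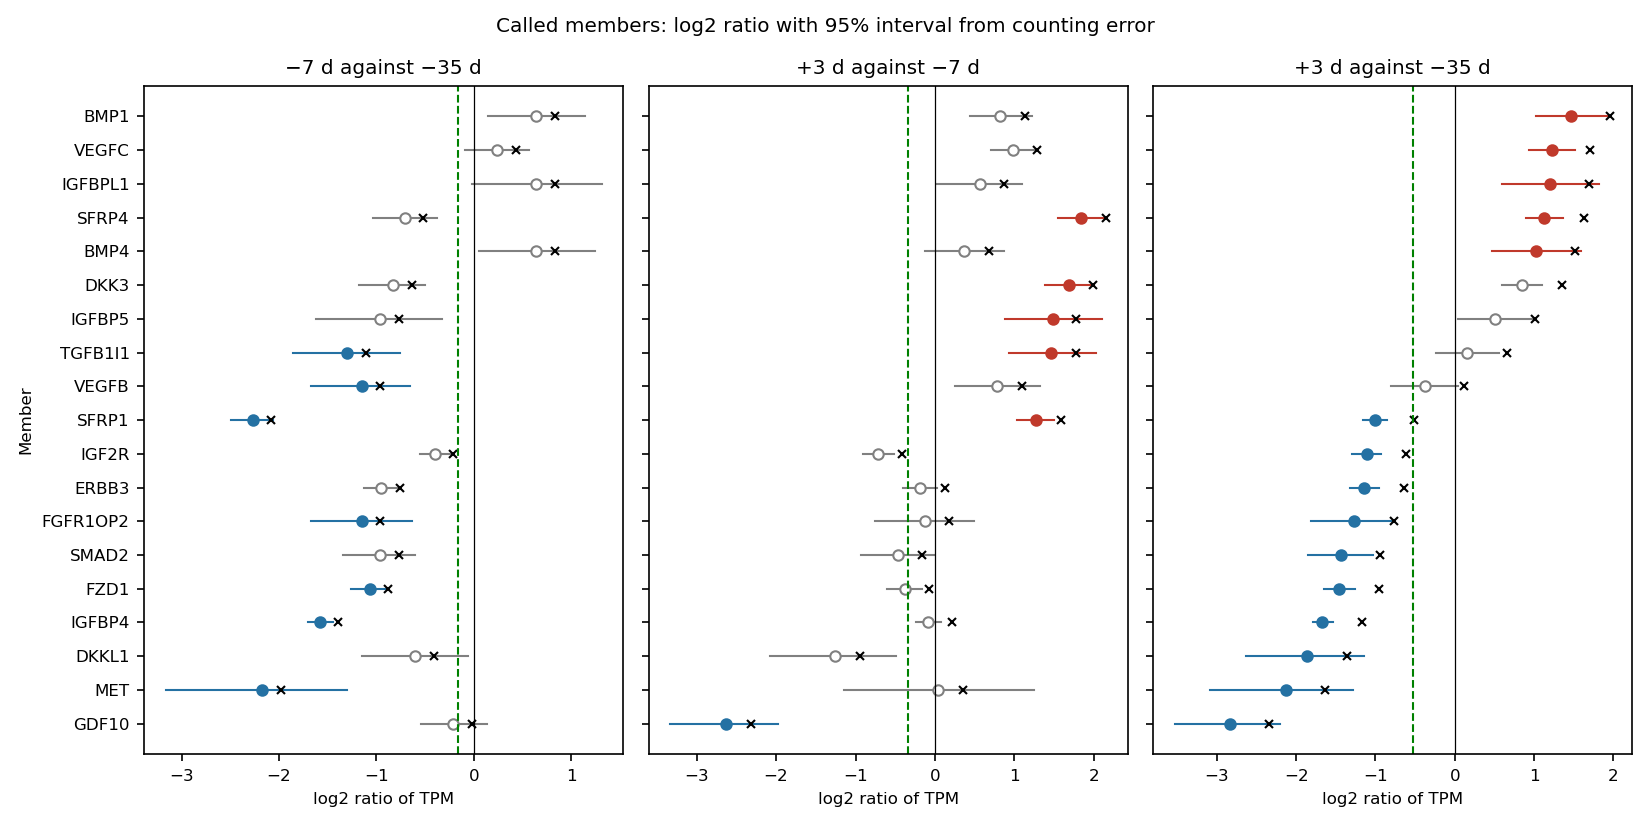
Log2 ratio of TPM in the 3 comparisons for the 19 members that were called at least once and had over 3 tags in every library, ordered by the ratio at +3 d compared with −35 d. Circles are ratios scaled by clean tags (filled red called higher, filled blue called lower, open not called) with 95% counting intervals, crosses are ratios after TMM scaling and the green dashed line is the median of the genes that averaged 5 TPM or more. Crosses lie to the right of every circle, by 0.19, 0.31 and 0.50.

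The 11 members set apart as letters-only matches included 3 that were called. TGFB1I1, a focal adhesion protein of smooth muscle and stroma that also acts as a transcriptional coregulator, had 104 tags (17.6 TPM), 40 tags (7.15 TPM) and 115 tags (19.7 TPM). It was downregulated in stage I (log2 ratio −1.30, −1.86 to −0.76; Audic-Claverie FDR with BH adjustment = 2.95e-06) and upregulated in stage II (1.46, 0.93 to 2.02; Audic-Claverie FDR with BH adjustment = 3.26e-08), the same course as SFRP1. FGFR1OP2, named for a gene fusion with FGFR1, had 110 tags (18.6 TPM), 47 tags (8.40 TPM) and 45 tags (7.70 TPM). It was downregulated in stage I at −1.15 (−1.67 to −0.64) and over the whole span, and both calls ended after TMM scaling. DKKL1, a secreted relative of the Dickkopf proteins, had 77, 48 and 21 tags (13.0, 8.58 and 3.59 TPM) and was downregulated over the whole span at −1.86 (−2.63 to −1.15; Audic-Claverie FDR with BH adjustment = 5.3e-08).

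Of the rest of these 11, PDGFRL, a secreted receptor-like protein, had 147, 97 and 201 tags (24.9, 17.3 and 34.4 TPM), with a stage II ratio of 0.99 (0.63 to 1.35) that missed the fold threshold and passed it after TMM scaling at 1.30. EGFLAM, a matrix protein, had 249, 145 and 131 tags (42.1, 25.9 and 22.4 TPM), and EGFL7, a protein secreted by endothelium, had 135, 112 and 140 tags (22.8, 20.0 and 23.9 TPM). JAGN1 had 158, 183 and 127 tags (26.7, 32.7 and 21.7 TPM), and TGFBRAP1, which takes part in vesicle traffic, had 78, 69 and 63 tags (13.2, 12.3 and 10.8 TPM). None of these 5 was called, and EGFL8, FGF12 and FGF13 had at most 26 tags. Without these 11 members the calls were 5 of 60 tested (8.33%) in stage I, 6 of 60 (10%) in stage II and 15 of 62 (24.2%) over the whole span, beside 9.07%, 13.5% and 18.6% of all genes.

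Among the 40 members that averaged 5 TPM or more, the −7 d library was the lowest of the 3 for 18 (45.0%), where this held for 23.6% of the 5902 genes at that level. It was the highest for 2 (5.0%), IGFBP7 and JAGN1, where this held for 32.0% of genes. Another 14 members (35.0%) had a lower TPM in each later library, beside 37.7% of genes, and 6 (15.0%), BMP1, BMP4, IGFBPL1, SMAD1, VEGFA and VEGFC, a higher one, beside 6.71% of genes. After TMM scaling the −7 d library was lowest for 22 members (55.0%) and 29.8% of genes and highest for 1 (2.50%) and 34.1% of genes. The order counts any difference in TPM, so many of these members were not called in either stage. The median log2 ratio over members with over 3 tags in both libraries was −0.55 in stage I (58 members), 0.25 in stage II (55) and −0.17 over the whole span (56), beside −0.18, −0.30 and −0.52 for all genes. TMM scaling made these −0.36, 0.56 and 0.33, beside 0.01, 0.00 and −0.02, so the direction of the whole-span median depends on the scaling.

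Markers of several cell types moved alongside. Summed over the list, 10 markers of myoepithelium and smooth muscle went from 930 TPM to 564 TPM and 1182 TPM, with 3 lower in stage I and 5 higher in stage II. Of all genes tested, 6.45% were lower in stage I and 3.12% higher in stage II. MYLK, DES and OXTR of this list had a higher TPM in each later library and KRT14 a lower one, while the rest were lowest at −7 d. The 11 markers of fibroblasts and stroma went from 9322 TPM to 6595 TPM and 10331 TPM (1 lower, then 3 higher), and 12 macrophage genes from 499 TPM to 337 TPM and 581 TPM (4 lower, then 3 higher). Of the 10 macrophage rows with over 3 tags in both libraries, 9 were lower and 1 higher in stage I. C1QA and C1QB were close to level there, at −0.07 and −0.08. CD14 (2.87, 4.29 and 19.7 TPM) and the stromal marker LUM (503, 511 and 586 TPM) were higher in each later library. ITGAM was at 0 at −7 d and +3 d and a row of MSR1 at −7 d, and each had only 2 tags at −35 d. These 3 lists and the adipocyte markers were lowest in sum at −7 d, as were SFRP1, SFRP4, DKK3, TGFB1I1 and IGFBP5 singly. Adipocyte markers summed to 245, 175 and 454 TPM over 8 genes (1 lower, then 2 higher). PLIN4 was at 0 at −7 d and +3 d. The 2 higher were LPL (35.2, 38.3 and 172 TPM) and FABP4 (153, 91.4 and 244 TPM). PLIN1, FABP4 and RETN were lowest at −7 d, CIDEC and ADIPOQ were lowest at +3 d, and LEP was highest at −7 d. Endothelial markers summed to 322, 386 and 515 TPM over 11 genes, with 0 called in stage I and 2 higher in stage II. In stage I ROBO4 went from 70.2 to 132 TPM and ENG from 96.5 to 129 TPM. Of the 10 endothelial markers with over 3 tags in both libraries, 6 were lower and 4 higher in stage I (median log2 ratio −0.34). The 11 luminal markers, which include the milk proteins, went from 4567 TPM to 42424 TPM and 235710 TPM, with 7 higher and 1 lower in each stage. The 4 luminal markers that are no milk proteins differed in course. EPCAM had 2944, 1639 and 1229 tags, KRT8 1754, 878 and 957 tags and CDH1 52, 11 and 17 tags, so these stood highest at −35 d, while ELF5 had 1604, 1974 and 907 tags and stood highest at −7 d. None of the 11 luminal markers was at 0 in a library, and the part of these cell types in the members' ratios was not tested.

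Genes of the same pathways whose symbols do not meet the rule were counted from lists of pathway genes. For each of these lists the shares of all genes tested are the measure. They were 2.62% higher and 6.45% lower in stage I and 3.12% higher and 10.4% lower in stage II. Over the whole span they were 2.33% higher and 16.3% lower. After TMM scaling they were 4.22% and 3.90% in stage I, 5.87% and 4.90% in stage II, and 6.23% and 4.94% over the whole span. In the Wnt list of 17 genes, 2 were higher and 1 lower in stage I, and 0 higher and 3 lower in stage II, which became 1 higher and 2 lower after TMM scaling. RSPO1, which strengthens Wnt signals, had 29, 130 and 0 tags, and WIF1, a Wnt inhibitor, 3, 20 and 0 tags, so both stood highest at −7 d, where SFRP1, SFRP4 and DKK3 stood lowest. CTNNB1, the beta-catenin that carries the signal, had 341, 128 and 123 tags and was downregulated in stage I (log2 ratio −1.33; Audic-Claverie FDR with BH adjustment = 1.19e-19). PORCN, which lipidates Wnt ligands for secretion, had 199, 149 and 66 tags and was downregulated in stage II at −1.24, a call that ended after TMM scaling at −0.93.

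In the TGF-beta and BMP list of 21 genes, 0 were higher and 2 lower in stage I, and 3 higher and 2 lower in stage II. Over the whole span, 1 was higher and 3 were lower, which became 5 higher and 1 lower after TMM scaling. THBS1, an activator of latent TGF-beta, had 561, 312 and 1381 tags and rose in stage II by 2.08 on the log2 scale, and LTBP2, a latent TGF-beta binding protein, had 19, 4 and 39 tags and rose by 3.22. ACVR2A, an activin receptor, had 36, 31 and 6 tags and was downregulated in stage II at −2.43. ID1, a target gene of BMP signals, had 34, 14 and 6 tags. It was downregulated at +3 d compared with −35 d at −2.49, a call that ended after TMM scaling. Other genes of its family had more tags, with 870, 656 and 812 for ID3 and 192, 193 and 177 for ID2. Neither ID3 nor ID2 was called, with whole-span ratios of −0.08 (−0.22 to 0.06) and −0.10 (−0.40 to 0.20).

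In the list of EGF relays, 2 of 8 genes were lower in stage I and 5 of 8 at +3 d compared with −35 d, with 0 higher, and after TMM scaling the latter count was 1 of 8. GRB2, the adaptor between receptor kinases and RAS, had 42, 8 and 14 tags. It was downregulated in stage I (log2 ratio −2.31; Audic-Claverie FDR with BH adjustment = 1.24e-05). Of its exchange factors, SOS2 had 20, 0 and 3 tags and SOS1 had 125, 97 and 61 tags. SOS1 was not called in stage I at −0.29 (−0.68 to 0.11). It was downregulated over the whole span at −1.02, a call that ended after TMM scaling at −0.52. In the list of FGF, HGF, PDGF and VEGF partners, 1 of 12 was lower in stage I, PGF, a VEGF relative with 57, 18 and 31 tags, and 2 of 12 were lower over the whole span, among them the VEGF receptor KDR with 96, 64 and 43 tags. That KDR call ended after TMM scaling at −0.64, and the whole-span count became 2 higher and 0 lower. In the Notch list of 18 genes, 1 was higher (HES6, with 3, 24 and 5 tags) and 2 lower in stage I, 0 higher and 2 lower in stage II, and 5 lower of 17 tested over the whole span, among them NCSTN, a subunit of the protease that releases the Notch signal, with 53, 24 and 11 tags. TMM scaling made the Notch counts 1 higher and 1 lower in stage I, 2 higher and 1 lower in stage II, and 2 higher and 2 lower over the whole span. Of 4 genes in the list of IGF axis and insulin receptor relays, 0 were called in any comparison, and 1 was called higher in stage I after TMM scaling.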

How the data were processed

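Mammary tissue of 3 groups of 6 Holstein cows was measured by digital gene expression, with 1 pooled library per group. The authors dropped adaptors, reads with ambiguous bases, odd lengths and tags seen in only 1 copy, matched the clean tags of 21 bases to CATG sites of Bos taurus UMD 3.1 with at most 1 mismatch, and left out tags of several genes. The deposited counts are the unambiguous tags summed on each gene, and the deposited TPM values are these counts per 1000000 clean tags, which recalculation matched to within 0.00500 TPM. The deposited tag copy counts and the deposited summary were used for totals only, since tags are not tied to genes there. The gene tables list 8662, 8363 and 8359 genes at −35 d, −7 d and +3 d, where the deposited summary counts 8871, 8591 and 8582, so a gene without a row, taken as 0 tags, may have had tags.

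Tables were joined by accession (9154 genes), and members were found by symbol. Of the 73 members, 66 matched the RefSeq annotation of ARS-UCD 2.0, used for names only. The members and gene lists were chosen with earlier results of these data known. Libraries were compared by the Audic-Claverie test of the study's methods, with p as 2 times the smaller tail, BH adjustment over all genes that had tags in the pair, thresholds of 0.001 on the FDR and 1 on the size of the log2 ratio, where 0.01 TPM replaced 0 TPM. Intervals of log2 ratios are exact Clopper-Pearson, those of shares Wilson, both at 95%. PCR copies are not independent molecules, so intervals and floors cover counting error only. No fold is given where a library of the pair had at most 3 tags, except against a floor of 3 tags where it had 0. Such a fold leaves out the counting error of the other library and is no strict bound.

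The named genes are the 42 members called in a comparison or averaging 10 TPM or more. From each pathway list, up to 2 genes with the highest and 2 with the lowest log2 ratio among its called genes are named. ID2 and ID3 are given beside ID1, and SOS1 beside SOS2, as genes of the same families, chosen after their values were seen. The other 31 members (means of 0.113 to 8.43 TPM, at most 64 tags in a library) are given by tags or ranges, and those singled out among them were chosen after their values were seen. TMM ratios used edgeR's effective library sizes. Alternatives were TMM, DESeq2's size factors, totals without genes over 1% of a library, Fisher's exact test, the exact test of edgeR with the coefficient of variation among pools assumed to be 0.2 or 0.4, a threshold of 3-fold, a mean of at least 5 TPM, 0.5 tags added, and members without those that match by letters only. Genes whose current RefSeq symbol meets the rule were added as an alternative after seeing the data. The quasi-likelihood test of edgeR could not be fitted with 1 library per group. Scripts were tested on simulated data. Models and scaling ran in R 4.3.3 (edgeR 4.0.16, DESeq2 1.42.0), and all else in Python 3.11.15 (pandas 2.3.3, numpy 2.4.6, scipy 1.17.1, statsmodels 0.14.6, matplotlib 3.10.9).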

Additional observations from a re-analysis of the deposited data

How the results depend on the processing

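The number of members called in stage I, stage II and at +3 d compared with −35 d was 7, 7 and 17. Scaling by TMM gave 4, 13 and 16 calls and DESeq2's size factors 4, 13 and 16, and library totals without the genes over 1% of a library gave 7, 13 and 17. The last comparison changed its split, from 6 higher and 11 lower (64.7% lower) to 12 and 4 (25.0% lower) with TMM or DESeq2 and to 10 and 7 (41.2% lower) with the reduced totals, while stage I kept 0 higher and stage II 1 lower. Of the calls named above, TMM kept 4 of 7, 7 of 7 and 10 of 17, and 0 changed direction. An assumed coefficient of variation among pools of 0.2 left 1, 2 and 1 calls (SFRP1, then IGFBP1 and GDF10, then GDF10), and one of 0.4 left 0, 0 and 0. A 3-fold threshold left 2, 4 and 6. Fisher's exact test and 0.5 added tags gave 7, 7 and 17, a mean of at least 5 TPM 7, 6 and 15, members without letters-only matches 5, 6 and 15, and the members with current symbols added after seeing the data 7, 8 and 18. The share of all genes called was not counted with DESeq2's size factors, the reduced totals, Fisher's exact test or the 3-fold threshold. Nor was it counted with the mean of at least 5 TPM or the 0.5 added tags. The member counts under these settings, and their splits, therefore cannot be set against all genes. Over the 31 calls of single members, none turned its direction under any of the alternatives that gave a value for it.

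The assumed coefficients are settings and no spread was measured, because each time point had 1 library. Members with few tags are limited by depth: 33 had a mean below 5 TPM, and the median member had 59, 40 and 45 tags. Leaving out a replicate was not possible. No paired analysis was possible because each group was made of different cows and pooled into 1 library.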

Other observations

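Matched to current RefSeq names, 3 genes outside the symbol rule now carry a name that meets it, and they were looked at after the data were seen. FIGF, now VEGFD, is a ligand of the vascular endothelial growth factor family that acts on lymphatic vessels as VEGFC does. It had 53 tags (8.96 TPM) at −35 d, 53 tags (9.48 TPM) at −7 d and 124 tags (21.2 TPM) at +3 d, and was upregulated in stage II (log2 ratio 1.16; Audic-Claverie FDR with BH adjustment = 1.85e-06) and at +3 d compared with −35 d (1.24; Audic-Claverie FDR with BH adjustment = 2.31e-07), also after TMM scaling. TMEM149, now IGFLR1, a receptor of an IGF-like ligand, had 17, 11 and 26 tags and was not called. MGC139219, now SMAD5, had 0, 0 and 2 tags.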
